A study of Rattus norvegicus with 60 samples.

Results

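The genes of the constitutive proteasome subunits were followed in knee joint tissue and popliteal lymph nodes of rats with haemophilia A, 24 h after a bleed into a knee. A gene counted as a subunit gene where the array had a probe set annotated with exactly 1 symbol made of Psma, Psmb, Psmc or Psmd and a number, and the 3 inducible catalytic subunits Psmb8, Psmb9 and Psmb10 were set apart. The rule found 33 of the 18166 genes that had such a probe set, 14 of the core particle and 19 of the regulatory particle, and all 33 symbols matched a RefSeq gene. The probe set of Psma3 carried a further symbol (Psma3l) and was not used, and Psma8 and Psmd10 are not analysed here. Psmb6 was read by 2 probe sets, of which the brighter was used.

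The proteasome is the protease that degrades proteins tagged with ubiquitin, and nearly every cell makes it. Its core particle is a barrel of stacked rings: alpha subunits (Psma genes) form the outer rings that gate the entrance, and beta subunits (Psmb genes) form the inner rings that hold the cutting sites. The regulatory particle sits on the barrel. Its base holds a ring of ATPases (Psmc genes) that unfold substrates and push them in, and its lid (Psmd genes) removes the ubiquitin. In cells exposed to interferon the catalytic beta subunits are replaced by Psmb8, Psmb9 and Psmb10, which makes the immunoproteasome.

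All 20 rats had haemophilia A, the lack of clotting factor VIII, so the sham rats carried the disease too. A knee bleed was induced in 11 rats, which each gave both knees and both popliteal nodes, 11 arrays per group. The other 9 rats underwent a sham procedure and gave 7 knee and 9 node arrays. Bled knees and their nodes were always the left ones and all others the right, so bled and left cannot be told apart, nor can the blood and the injury that brought it. The knee sample was tissue from inside the joint, labelled synovial tissue. The node drains the lower hind limb. Values are deposited log2 RMA expression values, so a difference of 1.0 is a 2-fold change in signal. Differences of single genes between the groups of a tissue, and between the side differences of knee and node, were tested with limma over 36685 probe sets. They were called at a Benjamini-Hochberg adjusted p under 0.05, and ± after such a difference is its SE. Medians over genes, particle means, differences within a rat, SDs and levels of knee beside node are descriptions without a test. The precision rests on the number of arrays per group.

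The labelled tissues held their defining markers: the synovial lubricin gene Prg4 lay between 12.92 and 13.41 in all knees, and the B cell gene Ms4a1 between 10.82 and 11.58 in all nodes. Skeletal muscle genes ranged widely within every knee group (mean of 8 genes 5.66 to 11.74 in bled, 5.94 to 11.94 in contralateral and 5.80 to 11.89 in sham knees). Array medians lay between 5.64 and 5.94. The highest of them belonged to the sham knee of rat C5, which was the lowest sham knee for 24 of the 33 subunit genes. Among sham nodes the array of rat C2 was the lowest for 20 and that of rat C9 the highest for 12. The contralateral knee of rat K10 had a neutrophil marker mean of 7.96 and a cell cycle mean of 8.13, both within the range of the bled knees. The count of genes higher in bled than in sham knees and the median differences from sham knees are also given without the C5 array. Single-gene differences from sham knees include it. The count between the knees is also given without the contralateral knee of rat K10, and the gene called between nodes also without the C2 array.

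In the knee, nearly all subunit genes were higher on the bled side. Of the 33 genes, 31 rose against the contralateral knee and 0 fell, with a median difference of 0.57 over the 33 and of −0.00 over all 18166 genes. Of all probe sets 19.5% were called higher and 15.2% lower in this comparison (34.7% in either direction). Of the brighter probe sets, those at or above the tissue median, 32.9% were called higher. The groups did not overlap for 26 of the 33 genes, against 7.9% of all probe sets without overlap in that direction. The bled side was the higher one in all 11 rats for 30 genes, in 10 rats for Psmc2, in 9 for Psmd9 and in 4 for Psmb11. In bulk tissue a change in the share of a cell type and a change in RNA per cell cannot be told apart.

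Averaged over the genes of a particle, the shift was seen array by array. The mean of the 13 core particle genes other than Psmb11 lay between 9.86 and 10.01 in bled knees, between 9.10 and 9.42 in contralateral knees and between 8.83 and 9.41 in sham knees. The mean of the 19 regulatory particle genes lay between 9.64 and 9.84 in bled knees, between 9.04 and 9.37 in contralateral knees and between 8.84 and 9.32 in sham knees. No bled knee overlapped any other knee in either mean. Within a rat, the bled minus contralateral difference of the core particle mean ran from 0.46 (rat K1) to 0.83 (rat K11) and that of the regulatory particle mean from 0.37 (rat K10) to 0.68 (rat K11).

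**Figure D1:**
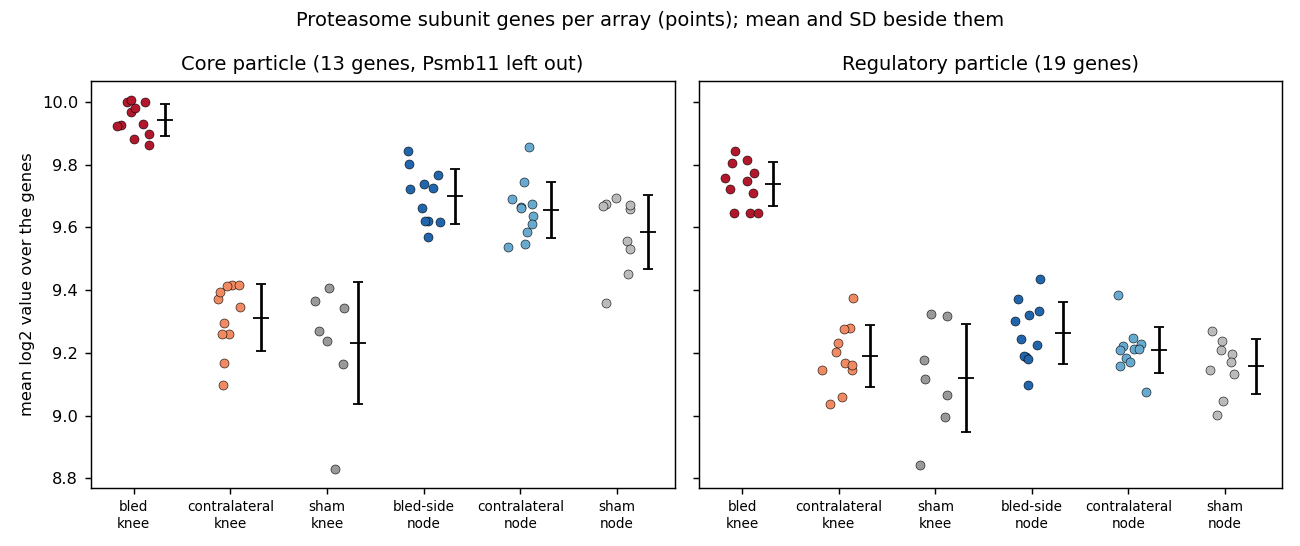
Mean log2 value over the 13 core particle genes (left panel, Psmb11 left out) and the 19 regulatory particle genes (right panel), 1 point per array, for the bled, contralateral and sham groups of knee and node; the bars beside the points are the mean and SD of a group. All 11 bled knees lie above every other knee (9.86 to 10.01 for the core particle, against at most 9.42), and the 3 node groups overlap.

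The alpha ring, whose subunits close the entrance of the barrel, had the higher median within the core particle, without a test between the rings. All 6 measured alpha genes rose without overlap between the groups, by 0.58 to 0.92 with a median of 0.69. Psma5 had log2 values of 9.02 to 9.37 (median 9.20) in bled knees, 8.02 to 8.60 (median 8.32) in contralateral knees and 8.20 to 8.63 (median 8.31) in sham knees. Its bled values lay above all others, and its difference from the contralateral knee was 0.92 ± 0.06, a 1.89-fold change (95% interval 1.73 to 2.07, adjusted p = 3.3e-13).

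Psma1 lay between 10.22 and 10.52 (median 10.42) in bled knees, between 9.41 and 9.71 (median 9.52) in contralateral knees and between 9.03 and 9.59 (median 9.39) in sham knees. It rose by 0.83 ± 0.06 against the contralateral knee (1.78-fold, adjusted p = 2.82e-12), and no bled value reached down to another knee. Psma6 ranged from 9.54 to 9.86 (median 9.74) in bled knees, from 8.74 to 9.22 (median 9.02) in contralateral knees and from 8.72 to 9.19 (median 8.99) in sham knees, again without overlap. Its difference was 0.70 ± 0.06 (1.63-fold, adjusted p = 5.92e-11). Of the remaining alpha genes Psma4 rose by 0.68, Psma2 by 0.58 and Psma7 by 0.58.

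The beta ring rose as well, in 7 of 7 genes and by 0.45 to 0.69 with a median of 0.56. Its catalytic subunits are Psmb5 with chymotrypsin-like, Psmb6 with caspase-like and Psmb7 with trypsin-like activity. Psmb5 lay between 8.59 and 8.88 (median 8.77) in bled knees, between 7.80 and 8.40 (median 8.22) in contralateral knees and between 7.54 and 8.33 (median 8.08) in sham knees. It differed between the sides by 0.57 ± 0.07 (1.49-fold, adjusted p = 1.66e-07), with no overlap.

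Psmb6 spanned 10.71 to 10.84 (median 10.79) in bled knees, 9.93 to 10.51 (median 10.25) in contralateral knees and 9.04 to 10.50 (median 10.18) in sham knees. Its SD was 0.04 among bled knees, the lowest of any subunit gene there, and 0.49 among sham knees, the highest of any there, where the array of rat C5 held the value of 9.04. The difference between the sides was 0.51 ± 0.11 (1.43-fold, adjusted p = 0.000183). The dimmer Psmb6 probe set gave 0.53 ± 0.11 (adjusted p = 0.000254). RefSeq lists a Psmb6-like gene (Psmb6l1) in the rat, and whether either probe set reads it was not tested.

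Psmb7 lay between 10.57 and 10.80 (median 10.69) in bled knees, between 9.91 and 10.50 (median 10.18) in contralateral knees and between 9.74 and 10.43 (median 10.21) in sham knees. It rose by 0.52 ± 0.07 (1.44-fold, adjusted p = 2.57e-07), and the groups did not overlap. Among the beta subunits without a cutting site, Psmb4 spanned 9.43 to 9.72 (median 9.57) in bled knees, 8.61 to 9.09 (median 8.84) in contralateral knees and 7.86 to 8.88 (median 8.78) in sham knees. Its difference of 0.69 ± 0.09 (1.61-fold, adjusted p = 8.45e-08) topped the beta ring, and its groups did not overlap. Psmb2, Psmb1 and Psmb3 rose by 0.59, 0.56 and 0.45, and of these Psmb3 overlapped between the sides.

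Psmb11, the beta subunit of thymic cortical epithelium, was the core gene not called. It was dim, with log2 values of 4.28 to 4.95 (median 4.66) in bled knees, 4.50 to 5.22 (median 4.75) in contralateral knees and 4.50 to 5.57 (median 4.80) in sham knees, below the median of every array. The groups overlapped, and the difference of −0.14 ± 0.12 did not pass the test (adjusted p = 0.417).

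The regulatory particle had the single largest difference. Psmd14, the metalloprotease of the lid that cuts ubiquitin chains off the substrate, lay between 9.73 and 10.13 (median 9.94) in bled knees, between 8.34 and 9.25 (median 8.86) in contralateral knees and between 8.66 and 9.16 (median 8.95) in sham knees. No bled value overlapped another knee. The difference from the contralateral knee was 1.04 ± 0.08, a 2.06-fold change (95% interval 1.83 to 2.32, adjusted p = 6.75e-12). All 8 lid genes rose, by 0.35 to 1.04 with a median of 0.58.

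Psmd3, a structural subunit of the lid, lay between 9.92 and 10.09 (median 10) in bled knees, between 9.24 and 9.45 (median 9.31) in contralateral knees and between 8.97 and 9.56 (median 9.28) in sham knees. Its groups did not overlap, and it rose by 0.67 ± 0.05 (1.59-fold, adjusted p = 5.94e-12). Psmd11, which braces the lid against the core particle, rose by 0.63, Psmd8 by 0.59, Psmd13 by 0.57, Psmd12 by 0.52 and Psmd6 by 0.46. The lowest lid value was that of Psmd7, the inactive partner of Psmd14, at 0.35 ± 0.06 (adjusted p = 5.78e-06), with overlapping groups.

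In the base, all 6 ATPase genes rose, by 0.26 to 0.67 with a median of 0.52. Psmc4 lay between 9.85 and 10.13 (median 10) in bled knees, between 9.17 and 9.43 (median 9.32) in contralateral knees and between 8.76 and 9.57 (median 9.19) in sham knees. It differed by 0.67 ± 0.07 (1.59-fold, adjusted p = 3.22e-09) without overlap. Psmc5 spanned 8.84 to 9.07 (median 8.95) in bled knees, 8.12 to 8.66 (median 8.26) in contralateral knees and 7.91 to 8.60 (median 8.08) in sham knees, also without overlap, and rose by 0.66 ± 0.08 (1.58-fold, adjusted p = 1.53e-08).

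Psmc2 stood lowest among the called genes, at 0.26 ± 0.07 (1.20-fold, adjusted p = 0.00566). Its groups overlapped, and with quantile normalization it no longer passed (0.17, adjusted p = 0.0562). The scaffold subunits Psmd1 and Psmd2 rose by 0.64 and 0.61, and Psmd4, a ubiquitin receptor of the base, by 0.54, each without overlap. The rule also took in Psmd5 and Psmd9, chaperones that help to assemble the base and are absent from the finished particle. Psmd5 rose by 0.47 ± 0.06 (adjusted p = 2.27e-08), while Psmd9 differed by 0.20 ± 0.08 and missed the threshold (adjusted p = 0.0508). With the rat as a replicate block Psmd9 passed (adjusted p = 0.0405), as it did without the contralateral knee of rat K10 (0.23, adjusted p = 0.017).

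**Figure D2:**
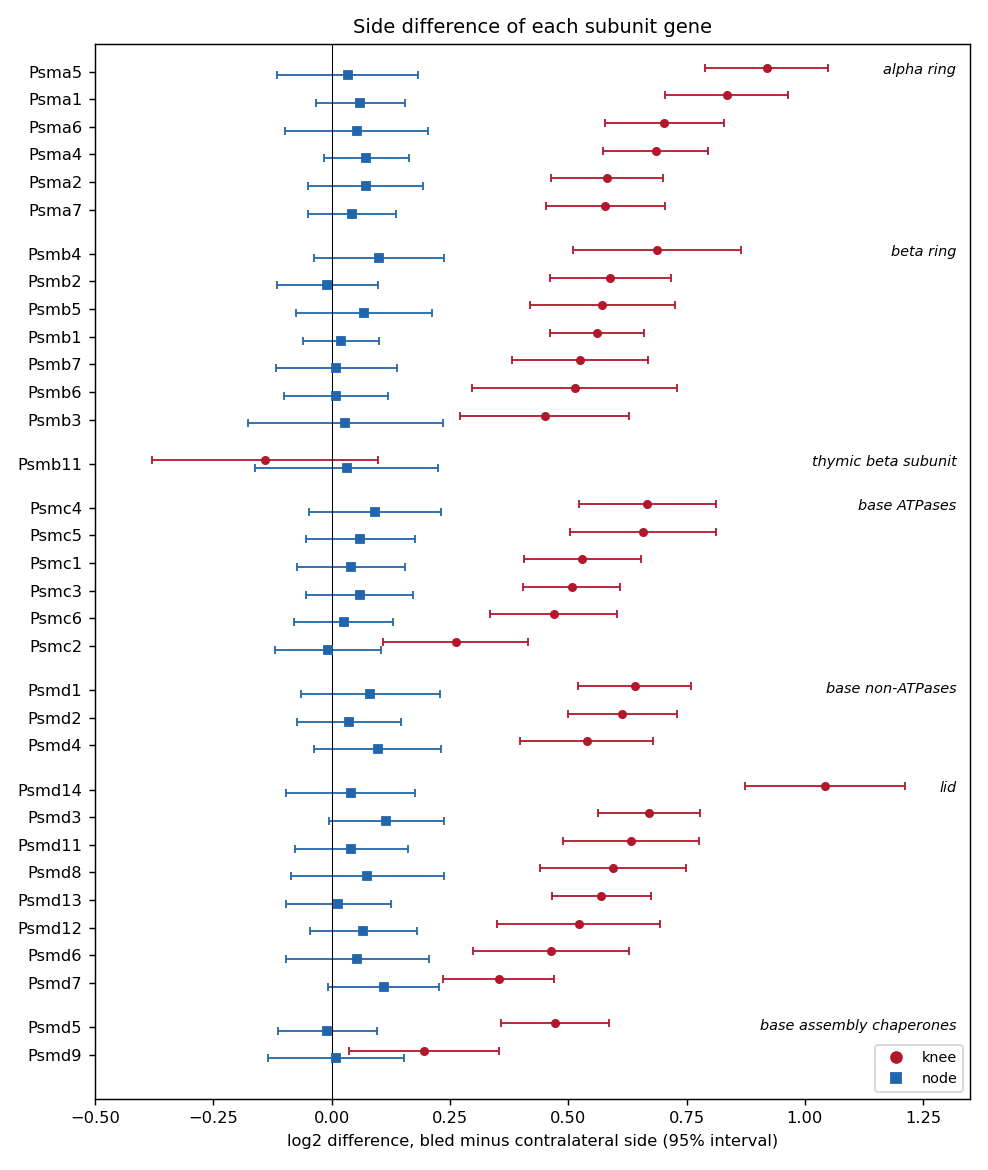
Difference of each of the 33 subunit genes between the bled and the contralateral side in log2 units, with 95% intervals not adjusted for the number of genes, for knees (circles) and nodes (squares), grouped by position in the particle. In the knee the intervals of all genes but Psmb11 lie above 0, from 0.20 for Psmd9 to 1.04 for Psmd14, and in the node every interval includes 0.

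The spread between animals was smaller in bled knees. The median SD over the 33 genes was 0.09 in bled, 0.14 in contralateral and 0.21 in sham knees. Differences of SD were not tested, and the sham value includes the array of rat C5.

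Against the sham knee, the knees of other animals, 32 of the 33 genes were higher in the bled knee and 0 were lower, with a median difference of 0.65. Of all probe sets 19.9% were called higher and 18.8% lower here (38.7% in either direction). The groups did not overlap for 28 genes, against 9.52% of all probe sets without overlap in that direction. This comparison shares the bled knees with the one above, so the values of the same genes are set side by side and not read as a repeat.

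Psma1 differed from sham by 1.00 ± 0.07 (2.00-fold, adjusted p = 1.28e-12) and Psmd14 by 1.00 ± 0.09 (2.00-fold, adjusted p = 3.22e-10). Psmb4 differed by 0.92 ± 0.10 (adjusted p = 4.1e-09) and Psmc4 by 0.81 ± 0.08 (adjusted p = 9.43e-10). The catalytic subunits Psmb5, Psmb6 and Psmb7 differed by 0.68, 0.72 and 0.51. Psmd9, just short of the threshold between the sides, was higher than in sham by 0.44 ± 0.09 (adjusted p = 0.000126). Psmb11 was the 1 gene not called, at −0.28 ± 0.13 (adjusted p = 0.0915). Without the sham knee of rat C5 the count stayed at 32 and the median difference was 0.59. The values of single genes above include that array. Without it the beta ring genes differed by 0.44 to 0.79, against 0.51 to 0.92 with it.

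The contralateral knee, opposite the bleed in the same rats, was called apart from the sham knee for 0 of the 33 genes, where 1.82% of all probe sets were called. At an unadjusted p under 0.05 there were 3 of the 33, against 15.8% of all probe sets. The median difference was 0.07, and 0.02 without the sham knee of rat C5. The largest value was that of Psmd9, at 0.25 ± 0.09 (adjusted p = 0.15). A p that misses the threshold does not show that these knees were alike: the 95% interval of Psmb4 ran from 0.04 to 0.44. That interval includes the sham knee of rat C5, where Psmb4 was 7.86 against 8.67 to 8.88 in the other sham knees. Without that array the largest beta ring difference was 0.10.

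In the popliteal node no subunit gene was called between the sides. Between the node of the bled side and the contralateral node limma called 0 of the 33 genes and 0% of all 36685 probe sets. At an unadjusted p under 0.05 there were 0 subunit genes and 860 probe sets (2.34%). The median difference was 0.04, the values of single genes ran from −0.01 to 0.12, and the 95% intervals of single genes reached from −0.18 (Psmb3) to 0.24 (Psmb4), all below the median difference of 0.57 in the knee. The core particle mean lay between 9.57 and 9.84 in nodes of the bled side, between 9.54 and 9.86 in contralateral nodes and between 9.36 and 9.70 in sham nodes. The regulatory particle mean lay between 9.10 and 9.44 in nodes of the bled side, between 9.08 and 9.38 in contralateral nodes and between 9.00 and 9.27 in sham nodes. All 3 groups overlapped in both means.

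Against sham nodes, 1 of the 33 genes was higher in nodes of the bled side, where 1.91% of all probe sets were called higher (4.26% in either direction). At an unadjusted p under 0.05 there were 13 of the 33, all higher, against 19.4% of all probe sets in either direction. The called gene was the lid gene Psmd7, with 9.64 to 10.09 (median 9.84) in nodes of the bled side, 9.60 to 9.97 (median 9.75) in contralateral nodes and 9.36 to 9.84 (median 9.65) in sham nodes. The groups overlapped, and the difference from sham was 0.22 ± 0.06 (adjusted p = 0.0336). The call was lost without the sham nodes of rats C2 and C9 (0.16, adjusted p = 0.135). Markers of other cell types moved in the same comparison. Monocyte and macrophage markers were called higher in these nodes than in sham nodes for 4 of 10 genes and lower for 0 (mean of the 10 genes 9.08 to 9.93 in nodes of the bled side, 8.19 to 9.15 in sham nodes). The sham value of 8.19 was that of rat C9, and the next lowest was 8.78 in rat C6. Synovial and fibroblast markers were called higher for 2 of 12 genes, and neutrophil markers for 1 of 10. The part of these cells in the Psmd7 value was not tested. Adipocyte markers were called higher in these nodes than in sham nodes for 3 of 10 genes (mean of the 10 genes 7.04 to 9.05 in nodes of the bled side, 7.06 to 8.87 in sham nodes). With that mean as a covariate Psmd7 was not called (0.20, adjusted p = 0.131). Calls over all probe sets fell from 4.26% to 0.902% under this covariate. Contralateral against sham nodes, 0 of the 33 genes were called, where 5.03% of all probe sets were. At an unadjusted p under 0.05 there were 5 of the 33, against 19.7% of all probe sets. The marker lists moved there too: 4 of 10 monocyte and macrophage genes and 5 of 10 adipocyte genes were called higher. So were 5 of 12 synovial and fibroblast genes and 1 of 10 neutrophil genes.

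**Figure D3:**
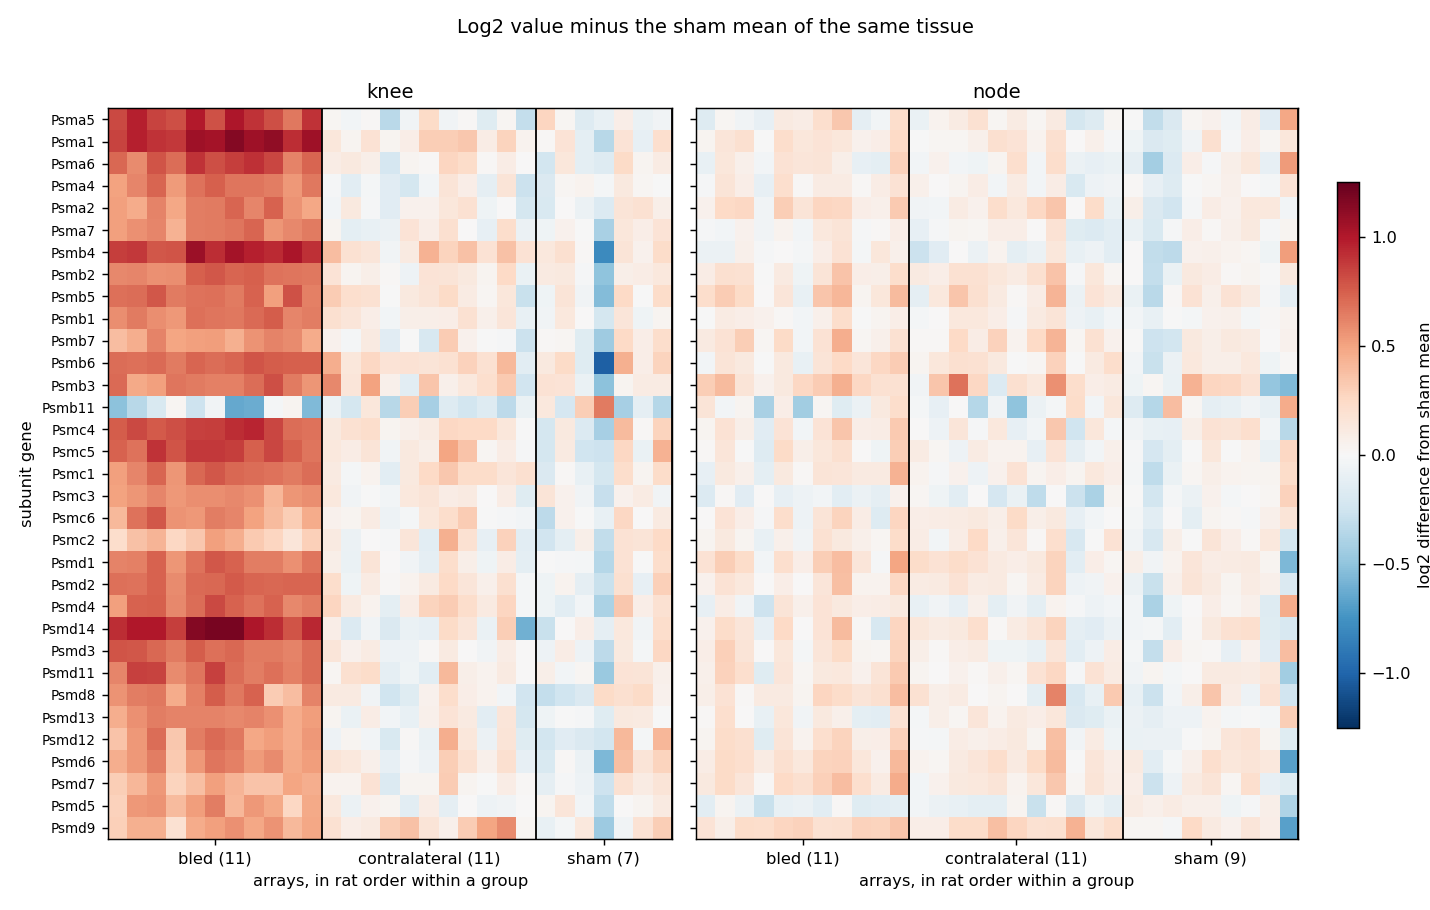
Log2 value of each of the 33 subunit genes (rows) in each array (columns) minus the sham mean of the same gene and tissue, for knees (left) and nodes (right), in rat order within the bled, contralateral and sham groups. Red runs through the 11 bled knees in every row but that of Psmb11, and single arrays stand out elsewhere, such as the sham knee of rat C5 in the beta ring rows (Psmb6 at 9.04) and the last sham node, that of rat C9.

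The side differences of knee and node were then tested against each other. The bled minus contralateral difference was larger in the knee for 31 of the 33 genes and smaller for 0, where 15.5% of all probe sets were called larger and 12.4% smaller (27.8% in either direction). Psmd14 had the largest difference between the tissues, 1.00 ± 0.11 (adjusted p = 7.22e-12). Psma5 followed with 0.89 ± 0.10 (adjusted p = 1.6e-11) and Psma1 with 0.77 ± 0.08 (adjusted p = 5.86e-13). Psma6 differed by 0.65, Psmc5 by 0.60 and Psmd11 by 0.59. Not called were Psmd9 (0.19, adjusted p = 0.211) and Psmb11 (−0.17, adjusted p = 0.494).

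Levels in knee and node can be set side by side only as a description, since the sources used here do not give whether the tissues were normalized together. In bled rats the bled knee mean was above that of the node of its side for 11 of 13 core genes, Psmb11 left out, with a median difference of 0.24, and for 19 of 19 regulatory genes, with a median of 0.52. In sham rats the knee mean was below the node mean for 12 of 13 core genes (median −0.42) and for 11 of 19 regulatory genes (median −0.04). The sham arrays of knee and node did not overlap for Psma1, Psma7, Psmb1 and Psmb4. The share of all probe sets without overlap between these tissues was not computed, so these genes are not read as a result.

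Genes that serve the proteasome were read from lists set beside the subunits. All 4 measured assembly chaperones rose in the bled against the contralateral knee, with a median of 0.51 and no overlap. Pomp, which guides beta ring assembly, lay between 10.15 and 10.45 (median 10.31) in bled knees, between 9.13 and 9.70 (median 9.52) in contralateral knees and between 9.07 and 9.56 (median 9.51) in sham knees, a difference between the sides of 0.82 ± 0.07 (adjusted p = 3.03e-11). Psmg2 rose by 0.59 and Psmg4 by 0.43, both chaperones of the core particle. Of the further subunits and bound deubiquitinases all 5 rose, with a median of 0.62. Among them were the deubiquitinases Uchl5 (0.77) and Usp14 (0.62) and the small lid subunit Sem1 (0.70).

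Alternative caps of the core particle did not move together. Psme4 rose by 0.57 ± 0.10 (adjusted p = 4.02e-05) and Psme2 by 0.38 ± 0.09 (adjusted p = 0.000598). Psme1, with which Psme2 forms an interferon-induced cap, differed by −0.13 ± 0.08 (adjusted p = 0.199), and the inhibitor Psmf1 by −0.12 ± 0.05 (adjusted p = 0.0667). Of the immunoproteasome subunits 1 of 3 was called between the knees. Psmb10 rose by 0.52 ± 0.09 (adjusted p = 2.9e-05), while Psmb8 differed by 0.16 ± 0.17 (adjusted p = 0.543) and Psmb9 by 0.07 ± 0.08 (adjusted p = 0.569). Against sham knees 2 of 3 were called higher in the bled knee: Psmb10 by 0.76, without overlap, and Psmb9 by 0.45 (adjusted p = 9.64e-05). Psmb8 differed from sham by 0.40 there and was not called. In the contralateral knee Psmb9 was higher than in sham by 0.38 (adjusted p = 0.0178). It was also higher than in sham in the nodes, by 0.25 on the bled side (adjusted p = 0.039) and by 0.24 on the contralateral side (adjusted p = 0.0399).

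Among ubiquitin receptors, the unfolding ATPase Vcp and its cofactors, 6 of 8 genes rose, led by the shuttle receptor Rad23b (0.68), Vcp itself (0.59) and its cofactor Nploc4 (0.52). The chaperonin genes of the cytosolic folding machine CCT rose in 8 of 8 cases with a median of 0.73, with Cct6a at 1.19 ± 0.09 (adjusted p = 1.2e-12). The COP9 signalosome, a complex built like the lid, had 5 of 8 genes higher, with a median of 0.24. Its Cops5, the relative of Psmd14, rose by 0.61 ± 0.10 (adjusted p = 3.74e-06). Of the muscle atrophy ligases, Fbxo32 fell by 1.78 on the log2 scale (adjusted p = 1.99e-05) and Trim63 and Fbxo30 were not called (0.04 and −0.08). The 8 skeletal muscle markers had a median of −1.79 in this comparison, with 0 called. The part of muscle content in the Fbxo32 value was not tested.

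Known regulators of proteasome transcription moved in both directions. Nfe2l1, the factor that raises subunit transcription when proteasome activity falls and that is controlled largely at the protein level, lay between 8.96 and 9.63 (median 9.15) in bled knees, between 9.83 and 10.28 (median 10.03) in contralateral knees and between 9.79 and 10.11 (median 9.91) in sham knees. It fell by 0.79 on the log2 scale against the contralateral knee (adjusted p = 6.85e-11), with no overlap. In the same list of 10 genes, 3 rose: the cell cycle factor Foxm1 by 1.03 (adjusted p = 1.13e-06), the cytokine-activated factor Stat3 by 0.24 (adjusted p = 9.75e-05) and Ddi2, the protease that releases Nfe2l1 protein from its membrane anchor, by 0.24 (adjusted p = 0.00749). Nfe2l2, the oxidative stress relative of Nfe2l1, differed by 0.12 between the knees (adjusted p = 0.0558), and was higher than in sham in both the bled (0.40, adjusted p = 8.72e-07) and the contralateral knee (0.27, adjusted p = 0.0068).

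**Figure D4:**
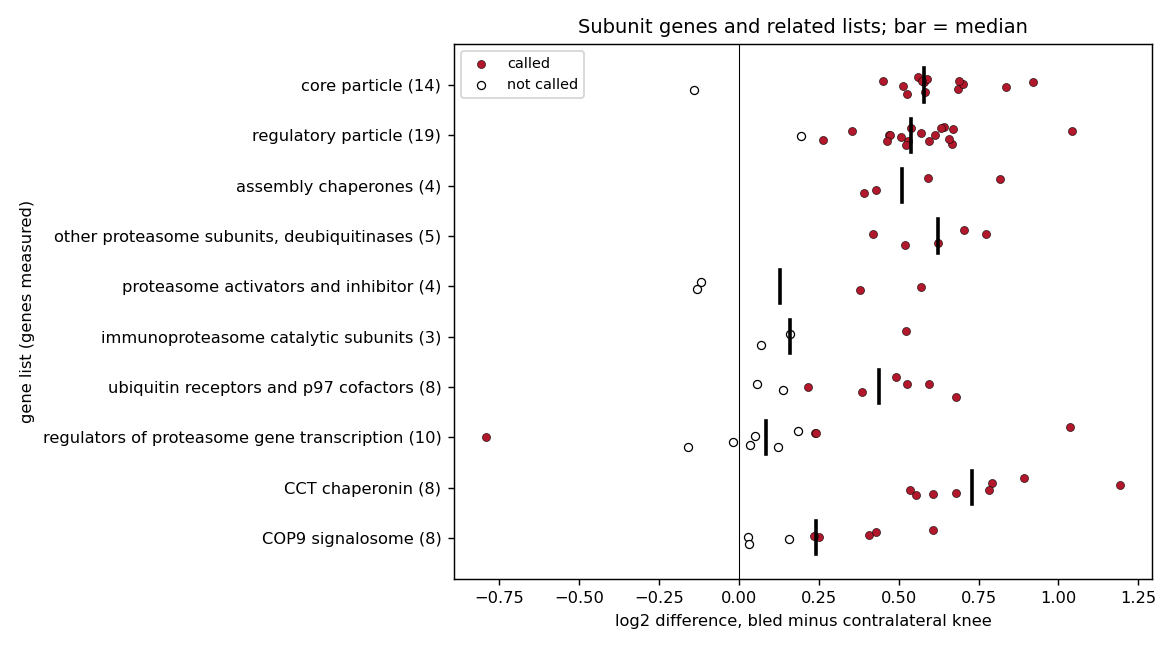
Difference between bled and contralateral knee in log2 units for each gene of the core particle, the regulatory particle and 8 related lists, 1 point per gene, filled where called at an adjusted p under 0.05; the vertical bar is the median of the list. The core (median 0.58) and regulatory particle (0.54) lie near the assembly chaperones (0.51) and below the CCT chaperonin (0.73), and Nfe2l1 lies at −0.79.

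Since the subunit genes shifted together, the bases before their starts are shown for a few. Of the 33 genes 28 had a promoter window in RefSeq (build GRCr8, 250 bases before to 50 after the start), and Psma7, Psmb11, Psmd6, Psmd12 and Psmd14 had none. The antioxidant response element core TGACNNNGC, to which Nfe2l1 and Nfe2l2 bind, was searched on both strands and found in 6 of 28 windows (21.4%), against 12.1% of all 33469 windows. The CCAAT box, bound by NF-Y, was searched on both strands and found in 14 of 28 windows (50%), in 8 of 12 of the core and 6 of 16 of the regulatory particle, against 37.5% of all windows. The 120 bases before the start are given 5′ to 3′ on the gene's strand, with the motif letters in capitals, for Psma5 (the alpha gene with the largest change and a pair of CCAAT boxes), Psmb2 (a CCAAT box whose last base is the first of an antioxidant element core) and the catalytic Psmb5 (an antioxidant element core).
Psma5: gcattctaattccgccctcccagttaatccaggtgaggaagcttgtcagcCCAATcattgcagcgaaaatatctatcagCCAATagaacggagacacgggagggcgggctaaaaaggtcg
Psmb2: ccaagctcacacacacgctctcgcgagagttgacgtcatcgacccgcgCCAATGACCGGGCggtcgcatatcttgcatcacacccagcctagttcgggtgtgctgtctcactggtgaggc
Psmb5: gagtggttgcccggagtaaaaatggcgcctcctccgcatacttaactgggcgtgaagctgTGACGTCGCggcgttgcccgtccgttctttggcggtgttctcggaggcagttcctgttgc
The Psma5 window is chr2:198584385-198584504 on the plus strand, that of Psmb2 chr5:144254938-144255057 on the plus strand and that of Psmb5 chr15:32047380-32047499 on the minus strand.

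The change in the knee can be set beside these matches. The 6 genes with an antioxidant element core had a median difference of 0.58 between bled and contralateral knee and the 22 without it 0.58. The 14 genes with a CCAAT box had a median of 0.55 and the 14 without it 0.62. These are descriptions of letters and were not tested, and a match is no evidence that a factor binds there.

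Several lists of markers of other cell types and of cell division moved with the same comparison. Against the contralateral knee, all 11 cell cycle genes rose in the bled knee, and their mean lay between 7.40 and 9.00 in bled, 5.74 and 8.13 in contralateral and 5.89 and 6.62 in sham knees. Of 10 neutrophil genes 5 rose and 1 fell, with means of 6.87 to 8.75 in bled, 5.75 to 7.96 in contralateral and 5.67 to 5.90 in sham knees. Of 10 monocyte and macrophage genes 7 rose and 2 fell, with means of 10.29 to 10.84 in bled, 9.66 to 10.21 in contralateral and 9.12 to 9.86 in sham knees. These leukocyte lists thus held genes called in both directions.

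Of 8 T cell genes 7 rose and 1 fell, with means of 7.53 to 8.07 in bled, 6.39 to 7.18 in contralateral and 6.20 to 6.52 in sham knees. All 10 adipocyte genes fell, with means of 8.11 to 9.55 in bled, 10.89 to 11.58 in contralateral and 10.85 to 11.48 in sham knees. Of the endothelial genes 5 of 6 fell, and of the synovial and fibroblast genes 8 of 12 fell and 1 rose. Of 6 B cell genes 1 rose (median 0.22), and of 3 measured erythroid genes 0 were called (median −0.39). Against sham knees these 3 erythroid genes had medians of 0.70 in the bled and 1.01 in the contralateral knee, with 0 called. RMA gives no value of 0, so no marker could be absent by that measure. The part of these cells in the subunit values was not tested.

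The contralateral knee of rat K10 had neutrophil and cell cycle means in the bled range. Its monocyte and macrophage (10.205), T cell (7.18) and adipocyte (11.255) means lay outside the bled ranges given above. Its core particle mean was 9.42, near the top of its own group (9.10 to 9.42) and below all bled knees. Its regulatory particle mean of 9.28 was also below all bled knees. Without that array 32 of the 33 genes were called higher. The 8 skeletal muscle genes were all lower in bled than in contralateral knees, by a median of −1.79 on the log2 scale (−2.18 to −0.74), and their mean was 7.84 ± 2.03 in bled and 9.55 ± 1.98 in contralateral knees (SD, n = 11 each). The groups overlapped, and 0 of the 8 passed the test. With the muscle mean as a covariate 31 of the 33 genes were called higher, with a median of 0.60. No such fit was made with the leukocyte, cell cycle or adipocyte means of the knee.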

How the data were processed

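RNA of 29 knee and 31 node samples was read on Affymetrix rat gene arrays, 1 array per sample. The deposited values are log2 expression values that the authors made by RMA, for which the submitters' processing notes name Affymetrix Expression Console 1.4.46, and they span 1.62 to 14.03. The options of RMA, whether both tissues were normalized together, and scan dates or batches are not given in the sources used here.

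Groups, sides and rats came from the sample labels. The members, gene lists, marker lists and tests were chosen with earlier results of these data known. Symbols were taken from the platform annotation of the array, and a gene was read from its probe set of highest mean. With limma 3.58.1 in R 4.3.3, a linear model of the 3 groups of a tissue was fitted to all 36685 probe sets without a filter (lmFit, eBayes, Benjamini-Hochberg), and the tissues were compared by a contrast of contrasts over all 60 arrays. Tables and figures used Python 3.11.15, pandas 2.3.3, numpy 2.4.6 and matplotlib 3.10.9. The alternatives were replicate blocks, fewer groups, other scalings, a filter on dim probe sets, other priors and weights, marker covariates and arrays left out.

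Given in full were Psmb5, Psmb6 and Psmb7, the 4 called genes of each particle with the largest change between the knees, up to 2 each way per particle in the other comparisons and up to 3 for the tissue difference. From each other list up to 3 called genes each way were named, with the 3 immunoproteasome genes; Psmb11, Psmd9, Psmc2 and further members were named to account for all 33, and Psme1, Psmf1, Nfe2l2, Trim63 and Fbxo30 after their values were seen.

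Per the labels, both sides of a bled rat are from 1 animal, which pairs them. Between the sides, deviations from the group mean correlated by 0.07 on average in the knee (−0.10 to 0.21) and by 0.23 in the node (0.12 to 0.32). The fits reported have no block. Promoter windows were read from RefSeq (GRCr8).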

Additional observations from a re-analysis of the deposited data

Results flagged for a closer look

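Among the 66 sham groups of a gene and tissue small enough to be examined, 18 (27.3%) had an array far from the rest of its group, where chance gives about 1 in 20. Since all genes were read on the same sham arrays, these 18 are not independent, and 1 in 20 is no test of their number. The sham knee of rat C5 held 9 of them, all low: Psma7 at 10.45, Psmb2 at 9.73, Psmb3 at 5.82, Psmb4 at 7.86, Psmb5 at 7.54, Psmb6 at 9.04, Psmd1 at 10.02, Psmd5 at 7.77 and Psmd11 at 8.64. The sham node of rat C9 was high for Psma5 (9.10), Psmb4 (9.83) and Psmd13 (10.41) and low for Psmd1 (9.67), Psmd5 (8.08), Psmd6 (8.57), Psmd9 (7.57) and Psmd11 (8.94). The sham node of rat C2 was low for Psmb2 (10.35). Both directions occurred in the node of rat C9, for genes of the same particle.

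Differences between the tissues in the bled minus contralateral contrast, tested as a contrast of contrasts, were named for 6 genes: Psmd14 (1.00), Psma5 (0.89), Psma1 (0.77), Psma6 (0.65), Psmc5 (0.60) and Psmd11 (0.59), each larger in the knee.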

How the results depend on the processing

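The 31 genes called higher in bled against contralateral knees numbered 30 to 32 over the alternatives (30 with quantile normalization, 32 with the rat as a random or paired replicate block), and 31 to 32 when each array was left out in turn. The 32 genes higher than in sham knees numbered 32 under every alternative run, and the tissue difference 29 to 31. The replicate block changed no call other than that of Psmd9 between the knees, which was also called with 4 further settings and without contralateral K5, K9 or K10, bled K1 or K4, or sham C5 or C9 (adjusted p 0.0135 to 0.046 over all of these). Counts that depended on the setting lay in the nodes and on single calls. For nodes of the bled side against sham, the 1 gene higher became 0 with only the 2 compared groups, array weights, no sham arrays C2 and C9 or the adipocyte covariate, and 2 with quantile normalization, centring or dim probe sets left out, and 0 to 2 without single arrays (0 without bled-side K7, K8 or K11 or sham C2, C3 or C8, 2 without sham C4). For contralateral against sham nodes, 0 genes higher became 1 with quantile normalization or dim probe sets left out, and 0 to 1 without single arrays (Psmd9, without sham C4). Leaving out single arrays gave 0 to 1 genes lower in both sham comparisons of the node (Psmd5, without sham C9) and in bled against sham knees (Psmb11, without the sham knee of rat C6 or C9). The cause was not tested. Without dim probe sets Psmb11 has no value. Of 219 values of the subunit genes picked by the naming rule, under alternatives that keep all or nearly all arrays, 4 lost their call, all of Psmd7 in the node. Psmc2, which that rule did not pick, lost its call between the knees with quantile normalization (0.17, adjusted p = 0.0562).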
